A study of Homo sapiens with 24 samples.

Results

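NFE2L2 (the gene of the transcription factor NRF2), its inhibitor KEAP1 and 7 antioxidant enzymes were followed through 24 ribosome profiling libraries of human colon cell lines. The 9 genes were fixed by their Ensembl identifiers. No measured value enters that rule, but the genes were chosen with earlier results of these data known. The genes are NFE2L2 (ENSG00000116044), KEAP1 (ENSG00000079999), NQO1 (ENSG00000181019), GCLM (ENSG00000023909), GCLC (ENSG00000001084), TXNRD1 (ENSG00000198431), HMOX1 (ENSG00000100292), GPX4 (ENSG00000167468) and GPX1 (ENSG00000233276). They are 9 of the 20426 genes that every count table lists, and all 9 were among the 11938 genes that passed the filter on low counts. RefSeq's GRCh38.p14 annotation places NFE2L2 at chr2:177230303-177264727, KEAP1 at chr19:10486125-10503356, NQO1 at chr16:69709401-69726560, GCLM at chr1:93885199-93909430, GCLC at chr6:53497341-53545101, TXNRD1 at chr12:104215779-104350307, HMOX1 at chr22:35381096-35394207, GPX4 at chr19:1103994-1106779 and GPX1 at chr3:49357176-49358353.

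In unstressed cells KEAP1 binds NRF2 and presents it to a ubiquitin ligase, so that NRF2 is made and destroyed without pause. Oxidants and electrophiles modify KEAP1, NRF2 then accumulates in the nucleus with small MAF proteins, and the pair binds the antioxidant response element in front of its target genes. NRF2 is therefore known to be set largely at the level of the protein, which neither assay here measures.

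The study compared INPUT RNA with ribosome-protected fragments (RPF, called footprints here) in 6 cell populations, with 2 libraries of each kind per population. The populations were 841CON, labelled as a normal colon epithelium cell and wild type and grown in EMEM, and 3 colon cancer lines labelled wild type, HCT116 grown in RPMI-1640, HCT15 grown in DMEM and SW620 grown in L15 in an air incubator. The other two were forms of HCT15, HCT15-PLVX, labelled wild type, and HCT15-COPS7B, labelled as overexpressing COPS7B, a gene of a COP9 signalosome subunit. All cells received 100 µg/mL cycloheximide, which halts elongating ribosomes, for 10 minutes before lysis, the controls included. Each line differs from the others in its medium too, so line and medium cannot be told apart, and each line is 1 line and not several. Nothing in the labels says that replicates were grown apart, so each p-value weighs only the scatter of the libraries at hand, and that scatter may be technical. The labelled cell types were not checked against marker genes, and the level of COPS7B was not analysed here.

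Totals over the shared genes ran from 960395 to 6596429 counts for INPUT and from 997844 to 4679279 for RPF, apart from SW620, whose RPF libraries held 98043 and 84262 counts. Counting error alone is therefore wide for SW620 footprints, and footprint counts of SW620 are printed beside the levels. The HCT15-COPS7B libraries stood apart from the HCT15 lines they are labelled with. Over 11938 genes the group means of log2(CPM + 1) of INPUT correlated with r = 0.929 between HCT15 and HCT15-PLVX, but with r = 0.618 between HCT15-COPS7B and HCT15-PLVX and r = 0.610 between HCT15-COPS7B and HCT15, against r = 0.684 with HCT116. The order was another in RPF, where HCT15-COPS7B correlated with r = 0.699 with HCT15-PLVX, 0.625 with HCT15 and 0.598 with HCT116. HCT15 and HCT15-PLVX correlated there with r = 0.875. In the INPUT libraries labelled HCT15-COPS7B, 394 genes at 10 CPM or more in both had no count in HCT15-PLVX, whereas 1 gene of HCT15-PLVX had no count in HCT15. Whether these 4 libraries come from HCT15 cells was not tested, so they are called libraries labelled HCT15-COPS7B, and calls elsewhere that end without them are named.

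**Figure D1:**
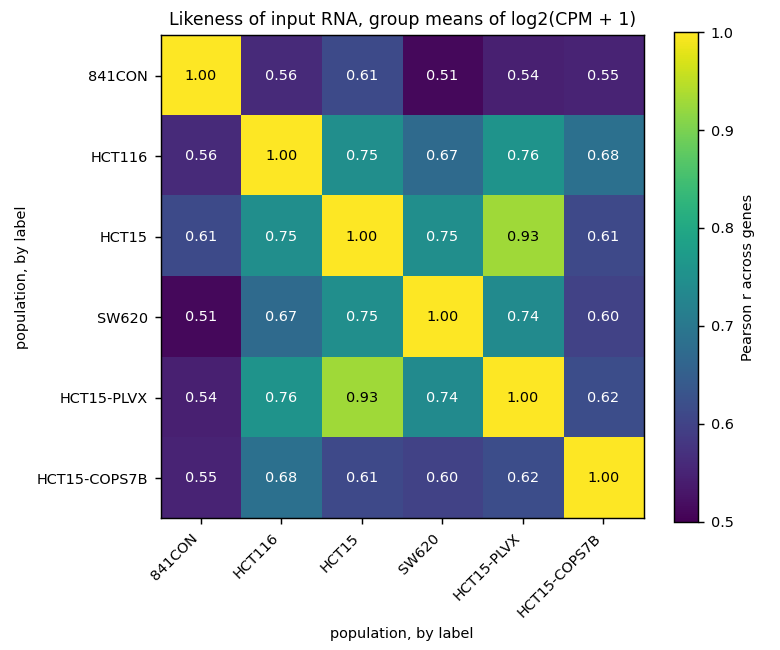
Pearson correlation across 11938 genes between the 6 populations' group means of log2(CPM + 1) in INPUT, with both axes giving the population by its label and the colour giving r. HCT15 and HCT15-PLVX correlate at 0.93, while HCT15-COPS7B correlates with both at 0.61 and 0.62.

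Replicates were unequally close. The biological coefficient of variation within a pair was 0.0372 to 0.0902 for 841CON RPF, HCT116 INPUT, HCT116 RPF and HCT15-COPS7B RPF, and 0.214 to 0.792 for the other groups. The widest pair was 841CON INPUT (0.792), against which the INPUT and TE of every cancer line were compared. HCT15 RPF (0.680) and HCT15 INPUT (0.635) came next. In the 841CON INPUT pair the deeper library detected fewer genes, 10705 from 6596429 counts against 12226 from 1383600. The HCT15 INPUT pair did likewise, with 10942 genes from 4309463 counts against 12311 from 1951142. The part of these differences in the spread was not tested. Over the 4 close pairs the chi-square per gene was 1.36 to 1.65, so they differed by little more than counting error. All groups shared 1 estimate of spread in the main fit, and results that ended when each close pair was summed into 1 library, or when only the compared libraries were fitted, are named.

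The letters through which NRF2 is known to act were looked for around the RefSeq starts of the genes, because several members are textbook NRF2 targets. The core of the antioxidant response element was searched as TGACNNNGC on both strands, in windows of 300 bases that run from 250 before to 50 after each RefSeq start (GRCh38.p14). Entries matched 8 of the 9 genes with 13 windows, and 4 windows of 3 genes held 6 matches. Of all 35116 windows in the table, 13.35% held a match, and of all 27305 genes 16.06%. The 6 matches, each with 8 bases on either side and the matched letters in capitals, are printed 5′ to 3′ on the strand that reads TGAC.
GCLM, chr1:93909448-93909472, + strand, 26 to 34 bases before the start: gaagacaaTGACTAAGCagaaatcg
TXNRD1, chr12:104215672-104215696, + strand, 91 to 99 bases before the start: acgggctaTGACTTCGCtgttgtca
TXNRD1, chr12:104215763-104215787, - strand, 0 to 8 bases before the same start: gtgggaacTGACGGAGCcgaaggac
TXNRD1, chr12:104286922-104286946, - strand, 94 to 102 bases before a second start: agtcagaaTGACAAAGCagaaatcc
KEAP1, chr19:10502809-10502833, - strand, 46 to 54 bases before the start: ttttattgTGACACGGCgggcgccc
KEAP1, chr19:10502786-10502810, + strand, 23 to 31 bases before the same start: ggtcaccaTGACTAAGCagagccgg
GCLM and KEAP1 share the letters TGACTAAGC, both on the strand opposite to the gene. Both KEAP1 matches lie before a second start, inside the annotated gene. The window of the start at the annotated 5′ end of KEAP1, chr19:10503307-10503606, held no match. The windows of NFE2L2, NQO1, GCLC, GPX4 and GPX1 held no match, which says only that these letters are not in these windows. A match is a run of letters and not a binding site, and no binding was measured.

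Levels are given as CPM, counts divided by the library total over the shared genes in units of 1e6, after scaling by trimmed means of M-values (TMM). Changes come from edgeR's quasi-likelihood test, fitted to all 11938 genes and 24 libraries, and a change is called at a Benjamini-Hochberg adjusted p below 0.05 over all genes tested. Translation efficiency (TE) is the footprint change beyond the INPUT change, tested as an interaction. TMM sets a trimmed mean of the changes to no change within each assay, so a shift shared by every mRNA would be hidden. The median gene can still lie away from no change. Against 841CON the median log2 change over all genes tested was -0.25 in HCT116 footprints, 0.27 in HCT15 footprints and -0.59 in HCT116 TE. Leaving TMM out adds a constant of 0.13 to 0.56 to every INPUT and footprint log2 change against 841CON, and DESeq2's size factors move the footprint changes by -0.33 to 0.28. Levels of different genes were not compared, because no lengths were used. Each change and call, apart from those of the libraries labelled HCT15-COPS7B against HCT15, was recomputed under alternative settings, changed singly, which leave out a library, exchange the scaling, the filter or the tool, fit fewer libraries, sum the close pairs or use the replicate number as a block.

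**Figure D2:**
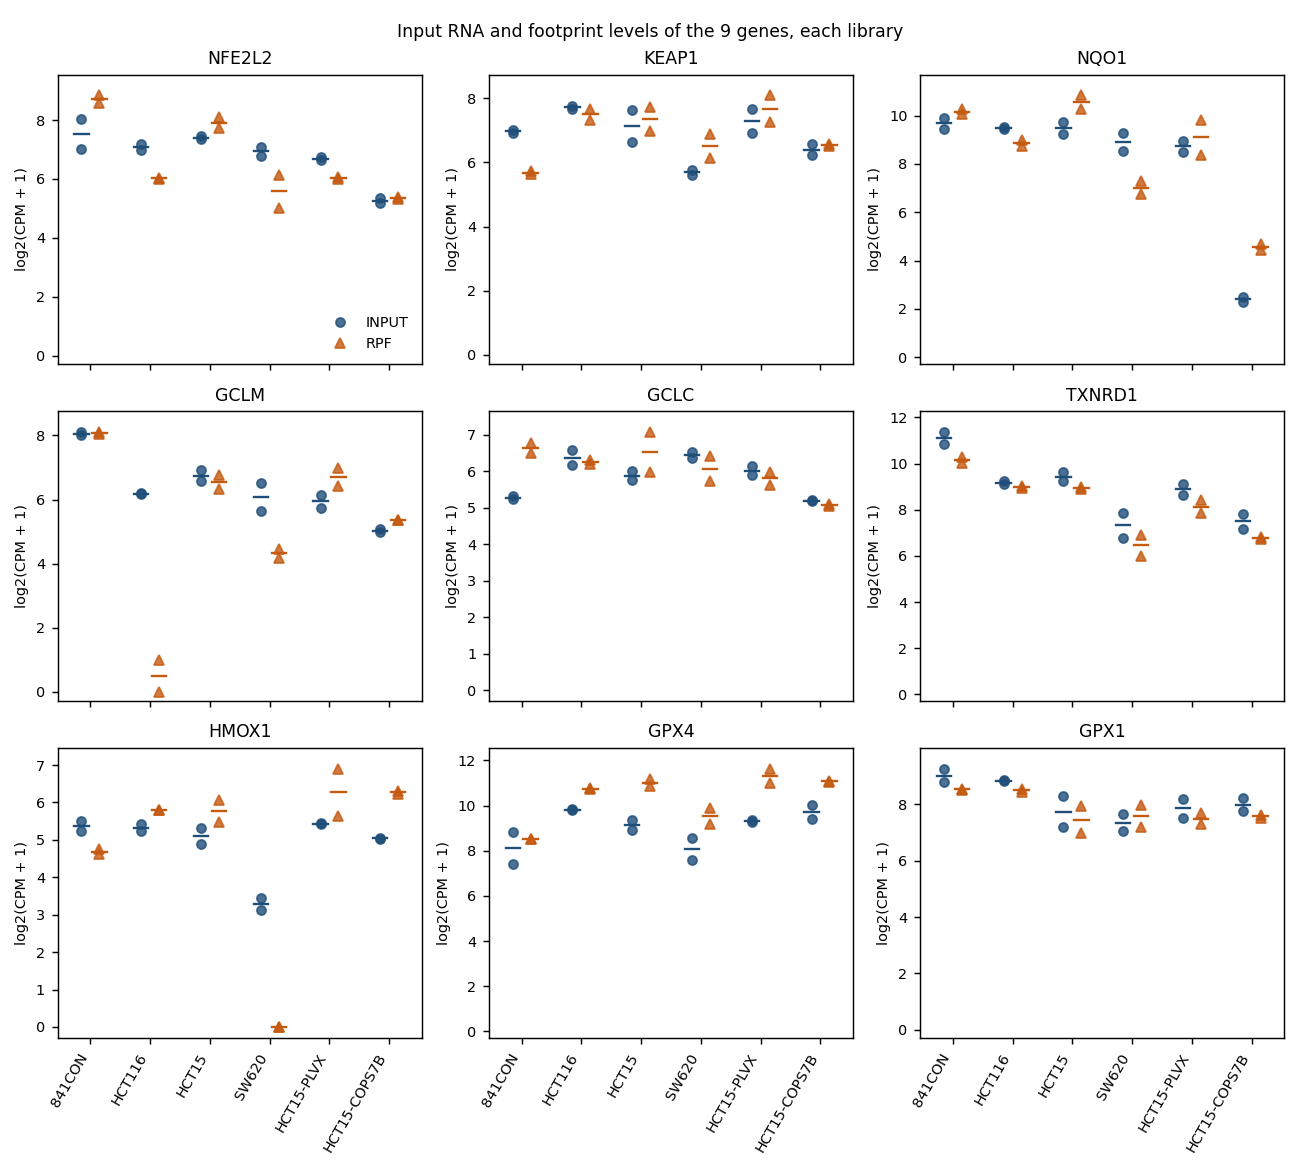
Level of each of the 9 genes in each library, as log2(CPM + 1) on the vertical axis, by population; circles are INPUT, triangles are RPF and short lines are the mean of the 2 libraries of a group. NQO1 is lowest in the libraries labelled HCT15-COPS7B, GCLM footprints are near 0 in HCT116, and HMOX1 footprints are at 0 in SW620.

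Among the regulators, NFE2L2 footprints were lower in all 3 cancer lines than in 841CON while its INPUT RNA was not called different with all libraries in the fit. NFE2L2 INPUT stood at 129 and 265 CPM in 841CON, 143 and 126 in HCT116, 163 and 174 in HCT15 and 136 and 109.7 in SW620. Every cancer line overlapped the wide 841CON pair, and the log2 changes were -0.56 (SE 0.32), -0.24 (SE 0.32) and -0.69 (SE 0.33), with adjusted p = 0.180, 0.615 and 0.0921. These INPUT values turned on which 841CON library was used. Without 841CON INPUT replicate 1, INPUT was called lower in HCT116 (log2 change -0.95, adjusted p = 0.0164) and in SW620 (log2 change -1.17, adjusted p = 0.00492). Without 841CON INPUT replicate 2, none was called, and the log2 change was 0.06 for HCT116, 0.38 for HCT15 and -0.08 for SW620. NFE2L2 footprints stood at 458 and 384 CPM in 841CON, 63.3 and 65.0 in HCT116, 275 and 211 in HCT15 and 68.9 and 31.7 in SW620, the last from 8 and 3 counts. No cancer library reached an 841CON library, and HCT15 lay between 841CON and the other lines. The footprint change was 6.55-fold down in HCT116 (log2 change -2.71, SE 0.35, adjusted p = 3.21e-06) and 8.15-fold down in SW620 (log2 change -3.03, SE 0.43, adjusted p = 2.81e-05). In HCT15 it was smaller (log2 change -0.80, SE 0.32, adjusted p = 0.0467). That HCT15 call held in 5 of 14 alternatives (adjusted p 0.00151 to 0.225) and ended, each taken singly, without 841CON RPF replicate 1, 841CON RPF replicate 2 or HCT15 RPF replicate 2, with TMM over all 24 libraries, without TMM scaling, without the low-count filter, with a mean count of at least 50 required, with the replicate block and with the close replicate pairs summed.

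The TE of NFE2L2 was lower in HCT116 (log2 change -2.15, SE 0.47, adjusted p = 0.00113) and in SW620 (log2 change -2.33, SE 0.55, adjusted p = 0.00717). In HCT15 it was not called (log2 change -0.56, SE 0.45, adjusted p = 0.429, 95% interval -1.45 to 0.33), except without 841CON INPUT replicate 2 (log2 change -1.18, adjusted p = 0.0471). The ratio of mean footprint CPM to mean INPUT CPM was 2.14 in 841CON, 0.477 in HCT116, 0.410 in SW620 and 1.44 in HCT15. Over the 4 ways of setting an RPF library against an INPUT library, the ratio ran from 1.45 to 3.54 in 841CON, which overlapped HCT15 (1.21 to 1.69) but not HCT116 (0.441 to 0.518) or SW620 (0.233 to 0.628). The 3 cancer lines differed among themselves in the TE of NFE2L2 (adjusted p = 0.00963). This difference held in 19 of 22 alternatives (adjusted p 0.00560 to 0.145) and ended, each taken singly, without HCT15 INPUT replicate 1, without TMM scaling and with the close replicate pairs summed. The HCT116 call held in 18 of 19 alternatives (adjusted p 5.19e-06 to 0.0630) and ended, each taken singly, with the close replicate pairs summed, and the SW620 call held in 17 of 19 alternatives (adjusted p 0.000726 to 0.111) and ended, each taken singly, in a fit of the compared libraries alone and with the close replicate pairs summed.

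KEAP1, the adaptor that hands NRF2 to the CUL3 ubiquitin ligase, moved the other way in footprints. KEAP1 footprints stood at 48.7 and 52.1 CPM in 841CON, 160.2 and 204 in HCT116, 127 and 212 in HCT15 and 68.9 and 116 in SW620, the last from 8 and 11 counts. Both 841CON libraries were below every cancer library. Footprints rose in HCT116 (log2 change 1.85, SE 0.40, adjusted p = 0.000579) and in HCT15 (log2 change 1.76, SE 0.40, adjusted p = 0.00125), while in SW620 the change was not called (log2 change 0.86, SE 0.49, adjusted p = 0.176), except without TMM scaling (log2 change 1.41, adjusted p = 0.0269).

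KEAP1 INPUT stood at 129 and 119 CPM in 841CON, 218 and 203 in HCT116, 200.1 and 98.7 in HCT15 and 48.2 and 53.2 in SW620. SW620 was below every other library of these lines, and its INPUT fell against 841CON (log2 change -1.29, SE 0.40, adjusted p = 0.0133). The KEAP1 INPUT changes in HCT116 (log2 change 0.76, SE 0.38, adjusted p = 0.122) and HCT15 (log2 change 0.27, SE 0.38, adjusted p = 0.626) were not called. In SW620 the TE of KEAP1 was higher (log2 change 2.14, SE 0.63, adjusted p = 0.0250), the only rise in TE called in the main fit among the 9 genes in the 3 cancer lines. Some alternatives called a rise in the TE of KEAP1 elsewhere: in HCT116 without TMM scaling (log2 change 1.33, adjusted p = 0.0462) and in a fit of the compared libraries alone (log2 change 1.06, adjusted p = 0.0246), and in HCT15 without HCT15 INPUT replicate 1 (log2 change 1.87, adjusted p = 0.0340) or HCT15 RPF replicate 1 (log2 change 1.80, adjusted p = 0.0303). The SW620 INPUT call held in 10 of 14 alternatives (adjusted p 0.00392 to 0.153) and ended, each taken singly, without SW620 INPUT replicate 1 or SW620 INPUT replicate 2, with limma and a weight per library and in a fit of the compared libraries alone. The TE call held in 11 of 19 alternatives (adjusted p 0.00263 to 0.153) and ended, each taken singly, without 841CON RPF replicate 1, 841CON RPF replicate 2, SW620 INPUT replicate 2 or SW620 RPF replicate 2, with limma and a weight per library, in a fit of the compared libraries alone, with the replicate block within population and with the close replicate pairs summed.

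NQO1 encodes a quinone reductase and is a textbook NRF2 target. NQO1 INPUT stood at 962 and 697 CPM in 841CON, 702 and 745 in HCT116, 857 and 608 in HCT15 and 370.3 and 612 in SW620. The cancer lines HCT116 and HCT15 overlapped 841CON and SW620 lay below it, and none of the 3 INPUT changes was called (adjusted p = 0.744, 0.780 and 0.133). NQO1 footprints stood at 1223 and 1066 CPM in 841CON, 508 and 424 in HCT116, 1236 and 1824 in HCT15 and 155 and 106 in SW620, the last from 18 and 10 counts. HCT15 was highest and SW620 lowest, with no overlap between any of the 4 lines. Footprints fell in HCT116 (log2 change -1.30, SE 0.40, adjusted p = 0.00913) and in SW620 (log2 change -3.12, SE 0.47, adjusted p = 5.19e-05), and the HCT15 change was not called (log2 change 0.42, SE 0.39, adjusted p = 0.399). The fall in HCT116 held in 12 of 14 alternatives (adjusted p 1.13e-15 to 0.171) and ended, each taken singly, without HCT116 RPF replicate 2 and with the close replicate pairs summed.

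The TE of NQO1 was lower in SW620 (log2 change -2.37, SE 0.61, adjusted p = 0.0126), and was not called in HCT116 (log2 change -1.10, SE 0.56, adjusted p = 0.114) or HCT15 (log2 change 0.60, SE 0.56, adjusted p = 0.495). The ratio of mean footprint to mean INPUT CPM was 2.09 in HCT15, 1.38 in 841CON, 0.645 in HCT116 and 0.265 in SW620. The cancer lines differed in the TE of NQO1 (adjusted p = 0.00205). The SW620 call held in 14 of 19 alternatives (adjusted p 0.00807 to 0.0714) and ended, each taken singly, without SW620 INPUT replicate 2 or SW620 RPF replicate 2, with limma and a weight per library, in a fit of the compared libraries alone and with the close replicate pairs summed. With DESeq2 (log2 change -1.32, adjusted p = 0.0336) and in a fit of the compared libraries alone (log2 change -1.14, adjusted p = 0.0126), the fall in HCT116 was also called.

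GCLM and GCLC form glutamate-cysteine ligase, the first enzyme of glutathione synthesis, GCLC as its catalytic and GCLM as its modifier subunit. In each cancer line against 841CON the INPUT log2 changes of GCLM and GCLC had opposite signs. The GCLC rise was not called in HCT15 in the main fit. GCLM INPUT stood at 273 and 259 CPM in 841CON, 70.7 and 72.7 in HCT116, 94.0 and 121 in HCT15 and 49.3 and 90.9 in SW620. Both 841CON libraries were above every cancer library. GCLM INPUT fell 3.71-fold in HCT116 (log2 change -1.89, SE 0.35, adjusted p = 0.000354), 2.48-fold in HCT15 (log2 change -1.31, SE 0.34, adjusted p = 0.00589) and 3.76-fold in SW620 (log2 change -1.91, SE 0.36, adjusted p = 0.000297). The HCT116 call held in all 14 alternatives (adjusted p 6.79e-08 to 0.0392) and the SW620 call held in all 14 alternatives (adjusted p 4.07e-08 to 0.0328). The HCT15 call held in 10 of 14 alternatives (adjusted p 0.000132 to 0.214) and ended, each taken singly, without HCT15 INPUT replicate 1, with limma and a weight per library, in a fit of the compared libraries alone and with the close replicate pairs summed.

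GCLM footprints were almost absent from HCT116. GCLM footprints stood at 274 and 261 CPM in 841CON (742 and 341 counts), 0 and 0.971 in HCT116 (0 and 1 counts), 79.0 and 108 in HCT15 (113 and 442 counts) and 17.2 and 21.1 in SW620 (2 and 2 counts). HCT116 lay below every other library, and 841CON above every cancer library. Pooled over both libraries, footprints were 551-fold lower in HCT116 than in 841CON, with a 95% counting interval of 98.6 to 21767 that rests on 1 count (adjusted p = 8.55e-09). The HCT116 INPUT libraries held 106 and 147 counts of the same gene, and its TE was called lower there (adjusted p = 3.04e-06). Footprints fell in HCT15 (log2 change -1.51, SE 0.35, adjusted p = 0.00145) and in SW620 (log2 change -3.81, SE 0.54, adjusted p = 2.69e-05) too, while TE was not called in HCT15 (log2 change -0.20, SE 0.48, adjusted p = 0.825) or SW620 (log2 change -1.90, SE 0.69, adjusted p = 0.0605). The SW620 fall in TE was called without SW620 INPUT replicate 1 (log2 change -2.23, adjusted p = 0.0304) and with TMM over all 24 libraries (log2 change -1.99, adjusted p = 0.0482). The TE of GCLM differed among the cancer lines (adjusted p = 1.55e-05). The fall in HCT116 TE held in all 18 alternatives (adjusted p 6.50e-09 to 0.00101).

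Missing footprints were not particular to GCLM in HCT116. Of 6154 genes at a mean of 30 CPM or more in HCT116 INPUT, 803 (13.0%) had at most 1 footprint count there, against 1.80% in 841CON, 0.125% in HCT15 and 5.17% in the much shallower SW620. The part of this property of the HCT116 RPF libraries in the GCLM result was not tested.

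GCLC INPUT stood at 36.8 and 38.9 CPM in 841CON, 71.4 and 94.0 in HCT116, 52.8 and 63.3 in HCT15 and 81.1 and 91.5 in SW620, and every cancer library was above both 841CON libraries. INPUT rose in HCT116 (log2 change 1.13, SE 0.37, adjusted p = 0.0204) and SW620 (log2 change 1.19, SE 0.37, adjusted p = 0.0142), and the HCT15 change was not called (log2 change 0.61, SE 0.37, adjusted p = 0.208), except without TMM scaling (log2 change 0.99, adjusted p = 0.0394). GCLC footprints stood at 108 and 89.6 CPM in 841CON, 78.1 and 72.8 in HCT116, 61.5 and 133 in HCT15 and 51.7 and 84.5 in SW620, with 6 and 8 counts in the last. No footprint change was called (adjusted p = 0.391, 1.00 and 0.356), except in HCT116 in a fit of the compared libraries alone (log2 change -0.56, adjusted p = 0.00360). TE was lower in HCT116 (log2 change -1.51, SE 0.52, adjusted p = 0.0228) and SW620 (log2 change -1.75, SE 0.58, adjusted p = 0.0431).

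Each of the 4 GCLC calls ended under some alternatives. The rise of INPUT in HCT116 held in 9 of 14 alternatives (adjusted p 0.00417 to 0.188) and ended, each taken singly, without 841CON INPUT replicate 2 or HCT116 INPUT replicate 2, with limma and a weight per library, in a fit of the compared libraries alone and with the close replicate pairs summed. The rise in SW620 held in 10 of 14 alternatives (adjusted p 0.00360 to 0.194) and ended, each taken singly, without SW620 INPUT replicate 2, with limma and a weight per library, in a fit of the compared libraries alone and with the close replicate pairs summed. The fall of TE in HCT116 held in 13 of 19 alternatives (adjusted p 0.00164 to 0.206) and ended, each taken singly, without 841CON RPF replicate 1, HCT116 INPUT replicate 2 or HCT116 RPF replicate 2, without TMM scaling, with limma and a weight per library and with the close replicate pairs summed. The fall of TE in SW620 held in 4 of 19 alternatives (adjusted p 0.0343 to 0.213) and ended, each taken singly, without 841CON INPUT replicate 1, 841CON RPF replicate 1, 841CON RPF replicate 2, SW620 INPUT replicate 1, SW620 INPUT replicate 2, SW620 RPF replicate 1 or SW620 RPF replicate 2, without the 4 libraries labelled HCT15-COPS7B, without TMM scaling, with DESeq2, with limma and a weight per library, in a fit of the compared libraries alone, with the replicate block within population, with the crossed replicate block within population and with the close replicate pairs summed. The cancer lines were not called different in the TE of GCLC (adjusted p = 0.167), except without HCT15 RPF replicate 1 (adjusted p = 0.0242).

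TXNRD1, the cytosolic thioredoxin reductase, was lower in INPUT and in footprints in all 3 cancer lines. TXNRD1 INPUT stood at 2610.5 and 1817 CPM in 841CON, 556 and 599 in HCT116, 607 and 787 in HCT15 and 109.5 and 230.4 in SW620. The 841CON libraries were the highest and the SW620 libraries the lowest, with no overlap of either with the other lines. INPUT fell 3.83-fold in HCT116 (log2 change -1.94, SE 0.37, adjusted p = 0.000453), 3.18-fold in HCT15 (log2 change -1.67, SE 0.37, adjusted p = 0.00168) and 13.0-fold in SW620 (log2 change -3.70, SE 0.40, adjusted p = 1.48e-06). The cancer lines differed among themselves (adjusted p = 0.000861). The HCT116 call held in all 14 alternatives (adjusted p 6.15e-08 to 0.0495), the SW620 call held in all 14 alternatives (adjusted p 1.49e-26 to 0.0100), and the HCT15 call held in 13 of 14 alternatives (adjusted p 2.82e-06 to 0.124) and ended, each taken singly, in a fit of the compared libraries alone.

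TXNRD1 footprints stood at 1235 and 1048 CPM in 841CON, 519 and 496 in HCT116, 479.7 and 503 in HCT15 and 121 and 63.4 in SW620, the last from 14 and 6 counts. The order of the ends was the same as for INPUT, with 841CON highest and SW620 lowest. Footprints fell in HCT116 (log2 change -1.17, SE 0.37, adjusted p = 0.00969), HCT15 (log2 change -1.22, SE 0.37, adjusted p = 0.00968) and SW620 (log2 change -3.61, SE 0.45, adjusted p = 6.99e-06). TE was not called in any line, with 95% intervals of the log2 change of -0.23 to 1.77 in HCT116, -0.55 to 1.45 in HCT15 and -1.05 to 1.22 in SW620. The HCT116 footprint call held in 10 of 14 alternatives (adjusted p 4.84e-15 to 0.195) and ended, each taken singly, without 841CON RPF replicate 1 or HCT116 RPF replicate 2, without TMM scaling and with the close replicate pairs summed. The HCT15 footprint call held in 12 of 14 alternatives (adjusted p 1.69e-05 to 0.0725) and ended, each taken singly, without 841CON RPF replicate 1 and with the close replicate pairs summed.

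HMOX1, the haem oxygenase induced by oxidants and haem, was low in SW620 in both assays. HMOX1 INPUT stood at 44.3 and 36.4 CPM in 841CON, 42.0 and 36.6 in HCT116, 39.1 and 28.9 in HCT15 and 9.86 and 7.79 in SW620, the last from 9 and 12 counts. SW620 was below every other library and the other 3 lines overlapped. INPUT fell in SW620 (log2 change -2.20, SE 0.49, adjusted p = 0.00146) and was not called in HCT116 (log2 change -0.03, SE 0.43, adjusted p = 0.993) or HCT15 (log2 change -0.23, SE 0.43, adjusted p = 0.727). The cancer lines differed in INPUT (adjusted p = 0.00409), a difference that held in 14 of 15 alternatives (adjusted p 0.000481 to 0.0598) and ended, each taken singly, without SW620 INPUT replicate 2. The SW620 call held in 12 of 13 alternatives (adjusted p 0.000174 to 0.0872) and ended, each taken singly, in a fit of the compared libraries alone.

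HMOX1 footprints stood at 25.8 and 23.7 CPM in 841CON, 54.4 and 54.4 in HCT116 and 66.4 and 43.3 in HCT15, and neither SW620 library held a count. Both HCT116 and HCT15 were above 841CON. Against a floor of 3 counts over the SW620 libraries, which is 14.2 CPM, the pooled 841CON level was 1.77-fold higher, and the lower 95% counting limit of the 841CON level made footprints at least 1.44-fold lower in SW620 (adjusted p = 0.00719 in the fit). Had 3 counts been observed in SW620, the 95% counting interval of that fold would run from 0.588 to 8.72 and include no change. That SW620 call held in 10 of 13 alternatives (adjusted p 0.00166 to 0.0967) and ended, each taken singly, without SW620 RPF replicate 1 or SW620 RPF replicate 2 and with DESeq2. Footprints rose in HCT116 (log2 change 1.13, SE 0.44, adjusted p = 0.0352) and in HCT15 (log2 change 1.13, SE 0.44, adjusted p = 0.0387). For HCT116 the rise held in 7 of 14 alternatives (adjusted p 0.000450 to 0.262) and ended, each taken singly, without 841CON RPF replicate 1, 841CON RPF replicate 2, HCT116 RPF replicate 1 or HCT116 RPF replicate 2, without the 4 libraries labelled HCT15-COPS7B, with DESeq2 and with the close replicate pairs summed. For HCT15 it held in 5 of 14 alternatives (adjusted p 0.0127 to 0.305) and ended, each taken singly, without 841CON RPF replicate 1, 841CON RPF replicate 2 or HCT15 RPF replicate 1, without the 4 libraries labelled HCT15-COPS7B, with DESeq2, with limma and a weight per library, without the low-count filter, in a fit of the compared libraries alone and with the close replicate pairs summed. TE was not called in any line (adjusted p = 0.132, 0.135 and 0.275).

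GPX4 and GPX1 are selenium-dependent glutathione peroxidases, GPX4 the enzyme that reduces lipid peroxides in membranes and GPX1 the abundant cytosolic form. GPX4 footprints stood at 361 and 362 CPM in 841CON, 1737 and 1715 in HCT116, 1864 and 2282 in HCT15 and 577 and 939.8 in SW620, the last from 67 and 89 counts. Every cancer library was above both 841CON libraries. Footprints rose 4.77-fold in HCT116 (log2 change 2.25, SE 0.43, adjusted p = 0.000186) and 5.73-fold in HCT15 (log2 change 2.52, SE 0.43, adjusted p = 0.000115). In SW620 the log2 change was 1.06 (SE 0.43), with adjusted p = 0.0566. Both footprint rises were stable: that in HCT116 held in all 14 alternatives (adjusted p 8.27e-20 to 0.0227) and that in HCT15 held in all 14 alternatives (adjusted p 3.88e-07 to 0.0173). The SW620 change was called with DESeq2, with limma, without TMM scaling, in a fit of the compared libraries alone and with a mean count of at least 50 required.

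GPX4 INPUT stood at 449.7 and 172 CPM in 841CON, 892 and 921 in HCT116, 476 and 662 in HCT15 and 375 and 192 in SW620. The 841CON replicates were far apart, and only HCT116 and HCT15 were above both of them. INPUT rose in HCT116 (log2 change 1.55, SE 0.42, adjusted p = 0.00623) and was not called in HCT15 (log2 change 0.88, SE 0.41, adjusted p = 0.107) or SW620 (log2 change -0.13, SE 0.41, adjusted p = 0.844). The HCT15 rise was called without 841CON INPUT replicate 1 (log2 change 1.84, adjusted p = 0.00392), without HCT15 INPUT replicate 1 (log2 change 1.35, adjusted p = 0.0440) and without TMM scaling (log2 change 1.31, adjusted p = 0.0124). The HCT116 rise held in 11 of 14 alternatives (adjusted p 0.000436 to 0.0932) and ended, each taken singly, without 841CON INPUT replicate 2, in a fit of the compared libraries alone and with the close replicate pairs summed. The cancer lines differed in GPX4 INPUT (adjusted p = 0.0106), a difference that held in 14 of 16 alternatives (adjusted p 0.000670 to 0.101) and ended, each taken singly, without SW620 INPUT replicate 2 and with the close replicate pairs summed. TE was not called in any line, with log2 changes of 0.70 (SE 0.58), 1.64 (SE 0.59) and 1.19 (SE 0.60). Without 841CON INPUT replicate 2 it was called higher in HCT15 (log2 change 2.18, adjusted p = 0.00677) and SW620 (log2 change 1.73, adjusted p = 0.0281), and with DESeq2 in SW620 (log2 change 1.49, adjusted p = 0.0480).

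GPX1 INPUT stood at 609 and 444 CPM in 841CON, 451 and 466 in HCT116, 316 and 144 in HCT15 and 202 and 132 in SW620. HCT116 overlapped 841CON, and both HCT15 and SW620 were below it. INPUT fell in HCT15 (log2 change -1.19, SE 0.40, adjusted p = 0.0260) and SW620 (log2 change -1.66, SE 0.41, adjusted p = 0.00281) and was not called in HCT116 (log2 change -0.20, SE 0.39, adjusted p = 0.744). The HCT15 call held in 8 of 14 alternatives (adjusted p 0.0115 to 0.307) and ended, each taken singly, without 841CON INPUT replicate 1 or HCT15 INPUT replicate 2, without TMM scaling, with limma and a weight per library, in a fit of the compared libraries alone and with the close replicate pairs summed. The SW620 call held in 13 of 14 alternatives (adjusted p 0.000243 to 0.0520) and ended, each taken singly, in a fit of the compared libraries alone. The cancer lines differed (adjusted p = 0.0137), and that difference held in 13 of 16 alternatives (adjusted p 0.00292 to 0.119) and ended, each taken singly, without HCT116 INPUT replicate 2 or SW620 INPUT replicate 2 and with the close replicate pairs summed.

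GPX1 footprints stood at 362 and 377 CPM in 841CON, 377 and 348 in HCT116, 245 and 125 in HCT15 and 146 and 253 in SW620, the last from 17 and 24 counts. They fell in HCT15 (log2 change -1.0, SE 0.40, adjusted p = 0.0442), a call that held in 6 of 14 alternatives (adjusted p 0.00467 to 0.330) and ended, each taken singly, without 841CON RPF replicate 1, 841CON RPF replicate 2 or HCT15 RPF replicate 2, without TMM scaling, without the low-count filter, with a mean count of at least 50 required, in a fit of the compared libraries alone and with the close replicate pairs summed. The HCT116 (log2 change -0.03, SE 0.40, adjusted p = 1.00) and SW620 (log2 change -0.90, SE 0.45, adjusted p = 0.119) changes were not called, except SW620 in a fit of the compared libraries alone (log2 change -0.78, adjusted p = 0.0264). TE was not called in any line (adjusted p = 0.841, 0.861 and 0.396). RefSeq lists the pseudogenes GPX1P1 and GPX1P2. The tables of HCT15-PLVX and HCT15-COPS7B tally reads that fit several places on a line of their own, at 16.6% to 27.2% of the summed lines. For the other libraries no such line is given, and the counting settings are not stated in the sources used here, so GPX1 counts are uncertain. The same holds for reads of overlapping genes, since the strand setting is not given. These are GCLC-AS1 at GCLC, NQO1-AS1 at NQO1, MIR3128 at NFE2L2, and TXNRD1-AS1, EID3 and RPL18AP3 at TXNRD1.

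**Figure D3:**
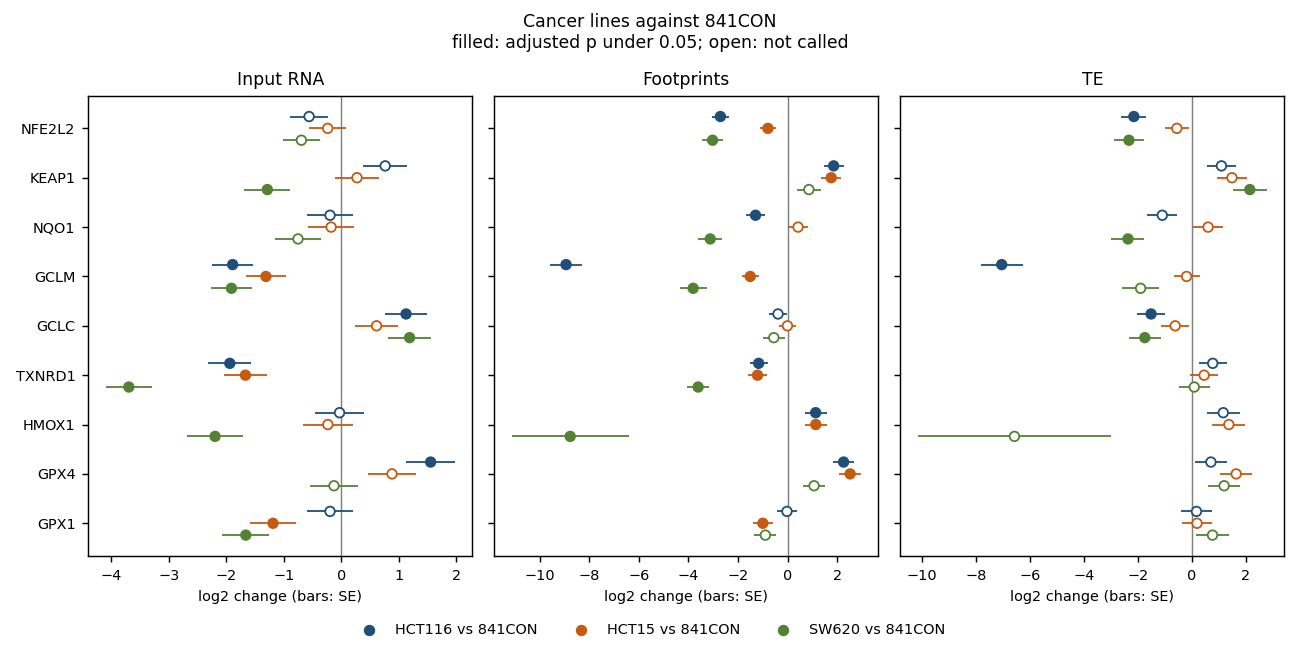
Log2 change of each gene in HCT116, HCT15 and SW620 against 841CON on the horizontal axes, for INPUT RNA, footprints and TE; points are edgeR estimates, bars are SE and filled points passed an adjusted p of 0.05. GCLM and TXNRD1 are filled on the left side in INPUT and footprints of all 3 lines, NFE2L2 in footprints of all 3, and the footprint and TE points of HMOX1 in SW620 and of GCLM in HCT116 rest on 0 and 1 footprint counts, so their distance from 0 has no firm size.

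The members called in each cancer line are counted here beside the share of all genes called, which was large, so that such counts alone set the 9 genes little apart. In HCT116, 4 of 9 passed in INPUT (2 higher, 2 lower) with 40.1% of all genes called, 7 of 9 in footprints (3 higher, 4 lower) with 59.3% called, and 3 of 9 in TE (all lower) with 45.6% called. In HCT15, 3 of 9 passed in INPUT (all lower) with 35.4% called, 7 of 9 in footprints (3 higher, 4 lower) with 49.9% called, and 0 of 9 in TE with 16.7% called. That 0 from edgeR stood beside 3 members at an unadjusted p under 0.05, and DESeq2 and limma called 0 as well. In SW620, 6 of 9 passed in INPUT (1 higher, 5 lower) with 44.4% called, 5 of 9 in footprints (all lower) with 37.8% called, and 4 of 9 in TE (1 higher, 3 lower) with 18.1% called. Among the 3 cancer lines, 5 of 9 differed in INPUT with 46.0% called and 3 of 9 in TE with 52.7% called. The 3 comparisons with 841CON share its libraries. Without TMM scaling the split of higher to lower was 2 to 2 in HCT15 INPUT, 3 to 2 in HCT15 footprints, 2 to 5 in SW620 footprints and 1 to 2 in HCT116 TE. With DESeq2 it was 1 to 4 in SW620 footprints and 2 to 2 in SW620 TE.

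The medians were lowest in SW620. The median log2 change over the 9 genes was -0.20 in INPUT, -0.39 in footprints and 0.17 in TE in HCT116, where all genes tested had medians of -0.04, -0.25 and -0.59. In HCT15 the members' medians were -0.23, -0.01 and 0.45, against -0.02, 0.27 and 0.30 over all genes. In SW620 they were -1.29, -3.03 and -1.75, against 0.03, -0.09 and -0.28 over all genes. With HMOX1 set against the floor of 3 counts, the SW620 medians were -0.90 for footprints and 0.09 for TE, so the size of both rests on how a gene with no footprint count is placed.

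In the forms of HCT15, HCT15-PLVX differed from HCT15 in the footprints of NFE2L2 and NQO1. The count tables of HCT15-PLVX and HCT15-COPS7B hold lines that name no gene, and those of HCT15 do not. The part of this difference in the form of the tables in the changes against HCT15 was not tested. NFE2L2 footprints stood at 275 and 211 CPM in HCT15 and 62.2 and 66.1 in HCT15-PLVX, and INPUT at 163 and 174 and 106 and 98.1. The groups did not overlap in either assay. Footprints were 3.78-fold lower in HCT15-PLVX (log2 change -1.92, SE 0.34, adjusted p = 0.00158), while INPUT (log2 change -0.72, SE 0.33, adjusted p = 0.398) and TE (log2 change -1.20, SE 0.46, adjusted p = 0.320) were not called. NQO1 footprints stood at 1236 and 1824 CPM in HCT15 and 903 and 331 in HCT15-PLVX and were lower in the latter (log2 change -1.31, SE 0.40, adjusted p = 0.0425). The NFE2L2 call held in 13 of 14 alternatives (adjusted p 5.52e-06 to 0.0806) and ended, each taken singly, in a fit of the compared libraries alone. The NQO1 call held in 9 of 14 alternatives (adjusted p 0.00863 to 0.290) and ended, each taken singly, without HCT15 RPF replicate 2 or HCT15-PLVX RPF replicate 2, without the 4 libraries labelled HCT15-COPS7B, in a fit of the compared libraries alone and with the close replicate pairs summed. GCLC footprints, not called with all libraries (log2 change -0.82, SE 0.37, adjusted p = 0.153), were called lower without HCT15 RPF replicate 1 (log2 change -1.27, adjusted p = 0.0189).

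No member was called in INPUT or TE between HCT15-PLVX and HCT15. By edgeR 0 of 9 passed in INPUT with 0.670% of all genes called, 2 of 9 in footprints with 10.5% called and 0 of 9 in TE with 0.175% called. At an unadjusted p under 0.05 there were 2 members in INPUT and 1 in TE, and DESeq2 and limma called no member in either.

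The libraries labelled HCT15-COPS7B were compared with HCT15-PLVX, and NQO1 was far lower in them. NQO1 INPUT stood at 499 and 359 CPM in HCT15-PLVX (1131 and 395 counts) and 4.63 and 3.89 in the libraries labelled HCT15-COPS7B (9 and 14 counts). NQO1 footprints stood at 903 and 331 and 20.5 and 25.0 CPM. The groups were far apart in both assays, and in INPUT these 2 libraries were the lowest of all 12. INPUT was 101-fold lower (log2 change -6.66, SE 0.53, adjusted p = 1.26e-07) and footprints 27.1-fold lower (log2 change -4.76, SE 0.47, adjusted p = 1.26e-06). Pooled counts gave 109-fold for INPUT, with a 95% counting interval of 72.6 to 173. The INPUT call held in all 12 alternatives (adjusted p 8.30e-39 to 3.45e-05) and the footprint call held in all 13 alternatives (adjusted p 1.01e-28 to 0.00355). Of all 11938 genes, 1.90% had a lower change than NQO1 in INPUT and 2.94% in footprints.

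NFE2L2 INPUT stood at 106 and 98.1 CPM in HCT15-PLVX and 35.0 and 40.2 in the libraries labelled HCT15-COPS7B. TXNRD1 INPUT stood at 559.8 and 398 and 145 and 221 CPM, and its footprints at 229 and 342 and 105 and 113. The groups did not overlap in any of these. INPUT was lower for NFE2L2 (log2 change -1.44, SE 0.34, adjusted p = 0.00513) and TXNRD1 (log2 change -1.39, SE 0.37, adjusted p = 0.0117), and TXNRD1 footprints were lower (log2 change -1.38, SE 0.37, adjusted p = 0.0139). The NFE2L2 footprint change was not called (log2 change -0.70, SE 0.33, adjusted p = 0.173). The NFE2L2 INPUT call held in 10 of 13 alternatives (adjusted p 0.000209 to 0.0663) and ended, each taken singly, without HCT15-PLVX INPUT replicate 1 or HCT15-COPS7B INPUT replicate 1 and with the close replicate pairs summed. The TXNRD1 INPUT call held in 10 of 13 alternatives (adjusted p 0.000102 to 0.153) and ended, each taken singly, without HCT15-PLVX INPUT replicate 1 or HCT15-COPS7B INPUT replicate 1 and with the close replicate pairs summed, and the TXNRD1 footprint call held in 9 of 13 alternatives (adjusted p 0.000298 to 0.264) and ended, each taken singly, without HCT15-PLVX RPF replicate 2, HCT15-COPS7B RPF replicate 1 or HCT15-COPS7B RPF replicate 2 and with the close replicate pairs summed.

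GCLM footprints stood at 84.9 and 125 CPM in HCT15-PLVX and 40.0 and 40.4 in the libraries labelled HCT15-COPS7B, and KEAP1 footprints at 152 and 273 and 95.1 and 89.5. Neither gene's groups overlapped, and both were lower, GCLM with log2 change -1.38, SE 0.35, adjusted p = 0.0104 and KEAP1 with log2 change -1.20, SE 0.38, adjusted p = 0.0366. The GCLM call held in 9 of 13 alternatives (adjusted p 0.000862 to 0.218) and ended, each taken singly, without HCT15-PLVX RPF replicate 2, HCT15-COPS7B RPF replicate 1 or HCT15-COPS7B RPF replicate 2 and with the close replicate pairs summed. The KEAP1 call held in 7 of 13 alternatives (adjusted p 0.00190 to 0.351) and ended, each taken singly, without HCT15-PLVX RPF replicate 2, HCT15-COPS7B RPF replicate 1 or HCT15-COPS7B RPF replicate 2, without TMM scaling, without the low-count filter and with the close replicate pairs summed. INPUT of GCLM (log2 change -0.94, SE 0.36, adjusted p = 0.0794) and KEAP1 (log2 change -0.93, SE 0.39, adjusted p = 0.112) was not called.

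GCLC INPUT stood at 69.3 and 58.1 CPM in HCT15-PLVX and 36.0 and 35.2 in the libraries labelled HCT15-COPS7B, and its footprints at 48.6 and 62.5 in the former and 32.0 and 33.3 in the latter. These libraries were below HCT15-PLVX in both assays, but neither INPUT (log2 change -0.84, SE 0.37, adjusted p = 0.138) nor footprints (log2 change -0.76, SE 0.37, adjusted p = 0.176) were called. With limma and a weight per library, INPUT was called lower for KEAP1, GCLM and GCLC (adjusted p = 0.0173, 0.0466 and 0.0426), and so it was in a fit of the compared libraries alone (adjusted p = 0.0248, 0.0225 and 0.0313). GCLM INPUT was also called with TMM over all 24 libraries and with DESeq2 (adjusted p = 0.0448 and 0.0386). HMOX1, GPX4 and GPX1 were not called in either assay, with log2 changes in INPUT of -0.40 (SE 0.43), 0.41 (SE 0.41) and 0.10 (SE 0.40) and in footprints of -0.14 (SE 0.42), -0.26 (SE 0.41) and 0.06 (SE 0.40).

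Against HCT15-PLVX, 3 of 9 members passed in INPUT (all lower) with 17.5% of all genes called and 4 of 9 in footprints (all lower) with 17.3% called. In TE 0 of 9 passed with 0% called, where edgeR called 0 of 9542 genes and 132 had an unadjusted p under 0.05. DESeq2 and limma called 0 genes too. The TE of NQO1 was 1.90 (SE 0.62) on the log2 scale (95% interval 0.67 to 3.12, adjusted p = 0.9998). The members' median log2 change was -0.93 in INPUT and -0.76 in footprints, against 0.08 and 0.05 over all genes.

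Set against HCT15 in place of HCT15-PLVX, a comparison added after the data were seen and run under 1 setting, NQO1 was again the lowest member in INPUT (log2 change -7.43, SE 0.55, adjusted p = 3.52e-08) and in footprints (log2 change -6.07, SE 0.49, adjusted p = 1.15e-07). INPUT was also lower for NFE2L2 (-2.16), GCLM (-1.76) and TXNRD1 (-1.93), 4 of 9 with 26.5% of all genes called. Footprints were also lower for NFE2L2 (-2.61), GCLM (-1.22), GCLC (-1.59) and TXNRD1 (-2.17), 5 of 9 with 35.7% called. In TE 0 of 9 passed with 0.353% called. The share of genes called in INPUT stood at 17.5% and 26.5% in the comparisons of these libraries and at 0.670% between HCT15-PLVX and HCT15, and the part of the libraries' overall distance from both HCT15 lines in the members' changes was not tested.

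**Figure D4:**
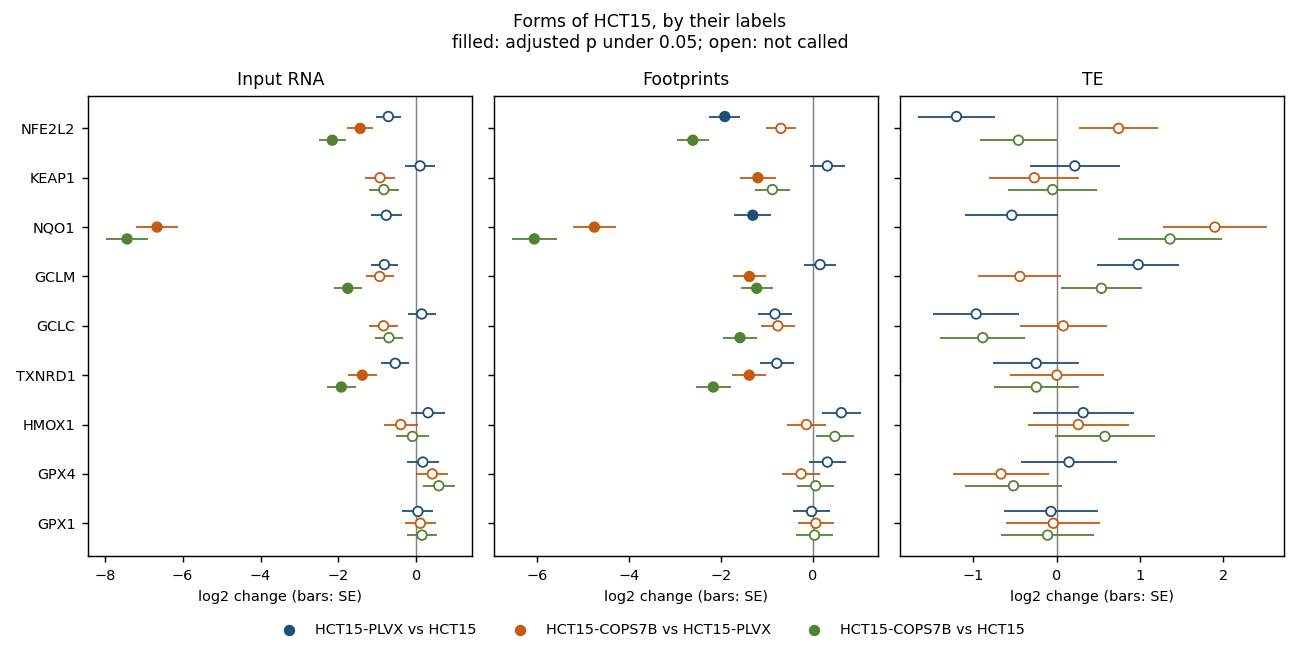
Log2 change of each gene between the forms of HCT15 on the horizontal axes, for INPUT RNA, footprints and TE; points are edgeR estimates, bars are SE and filled points passed an adjusted p of 0.05. NQO1 lies at -6.66 in INPUT for the libraries labelled HCT15-COPS7B against HCT15-PLVX, and no TE point is filled.

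Over all 6 populations the order of INPUT levels differed from gene to gene. The libraries labelled HCT15-COPS7B were lowest for NFE2L2, NQO1, GCLM and GCLC, with no overlap with the next population for any of these. For GCLC the gap was narrow, with 35.2 and 36.0 CPM against 36.8 and 38.9 in 841CON. SW620 was lowest for KEAP1 and HMOX1 without overlap, and lowest for TXNRD1, GPX4 and GPX1 with overlap of its neighbour. At the top, 841CON stood clear of the next population for GCLM and TXNRD1, HCT116 for KEAP1, and the highest population overlapped its neighbour for the other 6 genes. In footprints 841CON stood clear at the top for NFE2L2, GCLM and TXNRD1 and clear at the bottom for KEAP1 and GPX4. The share of all genes with such gaps was not computed, so these orders are not read as particular to the members.

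Genes whose INPUT pattern was most like NFE2L2 and NQO1 were sought by Pearson correlation of log2(CPM + 1) over the 12 INPUT libraries. The nearest to NFE2L2 were ENSG00000118680 (r = 0.951) and ENSG00000152601 (r = 0.930), and the nearest to NQO1 were ENSG00000171552 (r = 0.980) and ENSG00000138119 (r = 0.978). The 12 points share 6 populations. Without the libraries labelled HCT15-COPS7B, over 10 libraries, these values were 0.805, 0.758, 0.24 and 0.627, in the same order. The files do not pair these identifiers with names.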

How the data were processed

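Per the labels' protocols, cells were treated with cycloheximide, lysates were run on sucrose gradients, ribosomal RNA was removed and small-RNA libraries were built. The authors deposited raw counts per Ensembl gene and library. Tools in the submitters' processing notes are HTSeq 2.0.2, STAR 2.7.9 and cutadapt 3.5, with the build GRCh38; their settings, the strand and the annotation release are not stated in these sources. In the 8 libraries of HCT15-PLVX and HCT15-COPS7B, lines that name no gene held 53.6% to 90.8% of the summed lines and were left out. The tables of the other libraries hold no such lines.

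INPUT files list 60623 genes and RPF files list 20426, and tests used the 20426 shared ones. Groups came from the labels (12 groups of 2 libraries). One edgeR 4.0.16 quasi-likelihood model (R 4.3.3, limma 3.58.1, DESeq2 1.42.0) was fitted to all 24 libraries with 12 residual degrees of freedom, TMM within each assay, and edgeR's expression filter at a minimum count of 10 in both assays. TE was tested as an interaction, for genes whose INPUT counts averaged 10 or more in each population compared. SE is the log2 change over the square root of F. The 95% intervals of log2 changes use this SE with a normal quantile, so they are narrower than the F test would give. The procedure was tested on simulated counts. Counting intervals (95%, exact) and floors (3 counts) cover counting error only, since no molecular identifiers are stated.

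The members, lists and alternatives were chosen with earlier results of these data known. All 9 members were to be named whatever their values, with the 3 genes most like NFE2L2 and NQO1, of which the first 2 are printed. Lists of other pathway genes and cell type markers, named by symbol, were not analysed here. Promoter windows are RefSeq's. Replicate numbers were checked for pairing: deviations of same-numbered libraries correlated between -0.15 and 0.23 over 66 pairs of groups, 6 of them above 0.1, so the numbers were not taken to pair libraries.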

Additional observations from a re-analysis of the deposited data

Results flagged for a closer look

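The effect of being a cancer line rather than 841CON differed among HCT116, HCT15 and SW620 for 5 of 9 members in INPUT and 3 of 9 in TE. The test was edgeR's quasi-likelihood F test with Benjamini-Hochberg adjustment over all genes tested. It called 46.0% of all genes in INPUT and 52.7% in TE, so these counts do not set the 9 genes apart. In INPUT the members called were TXNRD1 (adjusted p = 0.000861), KEAP1 (adjusted p = 0.00170), HMOX1 (adjusted p = 0.00409), GPX4 (adjusted p = 0.0106) and GPX1 (adjusted p = 0.0137). SW620 was the lowest of the 3 lines for each of these 5. In TE the members called were GCLM (adjusted p = 1.55e-05), NQO1 (adjusted p = 0.00205) and NFE2L2 (adjusted p = 0.00963). HCT15 had the highest ratio of footprints to INPUT for each of the 3. GCLM in HCT116 rests on 1 footprint count, and the SW620 ratios of NQO1 and NFE2L2 rest on 28 and 11 footprint counts.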

How the results depend on the processing

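The comparison of the libraries labelled HCT15-COPS7B with HCT15 was run under 1 setting only. Of 153 other tests of members, 56 were called and 22 of those kept the call in every alternative run. Of 2415 values under alternatives, 2125 kept direction and side of the threshold, 145 lost the call, 36 gained it, 109 turned sign while not called in either, and 0 calls reversed. Most calls ended with the close pairs summed (27), in fits of the compared libraries alone (17), with limma and a weight per library (10) and without 841CON RPF replicate 1 (9). The cause was not tested.

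Counts of members called changed as follows. The numbers of all genes called differed between settings too, so these changes are not read as particular to the members. Those numbers are given below where they lay more than 1.5 times from the main count. With the close pairs summed, which leaves those groups 1 library each, assumed to vary like the others, INPUT counts were 2 in HCT116, 1 in HCT15, 1 for HCT15-COPS7B against HCT15-PLVX and 3 among the cancer lines. Footprint counts were then 4 in HCT116, 3 in HCT15, 1 for HCT15-COPS7B and 1 for HCT15-PLVX against HCT15, and TE counts 1 in HCT116 and 0 in SW620. In fits of the compared libraries alone, INPUT counts were 2 in HCT116, 0 in HCT15, 2 in SW620 and 6 for HCT15-COPS7B, the footprint count was 0 for HCT15-PLVX, and TE counts were 5 in HCT116 and 0 in SW620. With limma, INPUT counts were 1 in HCT15 and 6 for HCT15-COPS7B, and the TE count was 1 in SW620. Without the low-count filter, HCT15 footprints gave 4. With a mean count of at least 50 required, only 1 member was tested in SW620 footprints, in SW620 TE and in TE among the cancer lines. These gave 1, 0 and 0, in that order. Without the 4 libraries labelled HCT15-COPS7B, HCT15-PLVX footprints gave 1.

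Leaving out a library at a time gave ranges of 2 to 5 (HCT116 INPUT), 4 to 6 (HCT116 footprints), 3 to 6 (HCT15 footprints), 0 to 2 (HCT15 TE), 1 to 5 (SW620 TE), 1 to 3 (HCT15-COPS7B INPUT), 1 to 4 (HCT15-COPS7B footprints), 1 to 3 (HCT15-PLVX footprints) and 2 to 5 (INPUT among the cancer lines). In HCT15 TE the members gained were NFE2L2 and GPX4 without 841CON INPUT replicate 2, and KEAP1 without HCT15 INPUT replicate 1 or HCT15 RPF replicate 1.

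The replicate block ended 1 member call, NFE2L2 footprints in HCT15 (log2 change -0.80, adjusted p = 0.0546). With the replicate block within population the SW620 TE count was 2, as KEAP1 (adjusted p = 0.0540) and GCLC (adjusted p = 0.0793) were lost, and with the SW620 footprint numbers crossed, a replicate block in which GCLC was lost too (adjusted p = 0.0735), the count of genes called was 1225 against 1518.

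Counts over all genes lay more than 1.5 times from the main count in 89 of 272 cases, 31 of them with 1 library left out. With HCT15-COPS7B set against HCT15-PLVX, HCT15-PLVX against HCT15 and the other lines against 841CON, the main counts were 4782 (HCT116 INPUT), 7078 (HCT116 footprints), 3880 (HCT116 TE), 4226 (HCT15 INPUT), 5962 (HCT15 footprints), 1483 (HCT15 TE), 5300 (SW620 INPUT), 4510 (SW620 footprints), 1518 (SW620 TE), 2088 (HCT15-COPS7B INPUT), 2071 (HCT15-COPS7B footprints), 0 (HCT15-COPS7B TE), 80 (HCT15-PLVX INPUT), 1250 (HCT15-PLVX footprints), 17 (HCT15-PLVX TE), 5491 (INPUT among the cancer lines) and 4378 (TE among the cancer lines). With a mean count of at least 50 required, which tests fewer genes, such counts were 1697 (HCT116 INPUT), 1374 (HCT116 footprints), 549 (HCT116 TE), 1592 (HCT15 INPUT), 1864 (HCT15 footprints), 255 (HCT15 TE), 1890 (SW620 INPUT), 122 (SW620 footprints), 56 (SW620 TE), 373 (HCT15-COPS7B INPUT), 646 (HCT15-COPS7B footprints), 41 (HCT15-PLVX INPUT), 575 (HCT15-PLVX footprints), 0 (HCT15-PLVX TE), 1756 (INPUT among the cancer lines) and 69 (TE among the cancer lines). In the compared libraries alone such counts were 2784 (HCT116 INPUT), 0 (HCT15 INPUT), 0 (HCT15 TE), 2747 (SW620 INPUT), 288 (SW620 TE), 4189 (HCT15-COPS7B INPUT), 4106 (HCT15-COPS7B footprints), 3 (HCT15-PLVX INPUT), 96 (HCT15-PLVX footprints) and 0 (HCT15-PLVX TE). With the close pairs summed such counts were 2236 (HCT116 INPUT), 4367 (HCT116 footprints), 1822 (HCT116 TE), 3386 (HCT15 footprints), 229 (HCT15 TE), 2595 (SW620 footprints), 340 (SW620 TE), 1096 (HCT15-COPS7B INPUT), 335 (HCT15-COPS7B footprints), 0 (HCT15-PLVX INPUT), 264 (HCT15-PLVX footprints), 0 (HCT15-PLVX TE), 2249 (INPUT among the cancer lines) and 1945 (TE among the cancer lines). With limma such counts were 2007 (HCT15 INPUT), 413 (HCT15 TE), 3336 (SW620 INPUT), 955 (SW620 TE), 3941 (HCT15-COPS7B INPUT), 4023 (HCT15-COPS7B footprints), 27 (HCT15-PLVX INPUT), 609 (HCT15-PLVX footprints) and 0 (HCT15-PLVX TE). With the replicate block within population such counts were 954 (HCT15 TE), 1007 (SW620 TE) and 0 (HCT15-PLVX TE). Without the 4 libraries labelled HCT15-COPS7B such counts were 978 (HCT15 TE), 21 (HCT15-PLVX INPUT), 649 (HCT15-PLVX footprints) and 0 (HCT15-PLVX TE). With DESeq2 such counts were 333 (HCT15-PLVX INPUT) and 210 (HCT15-PLVX TE). Where leaving out 1 library moved a count that far, it ran from 3173 to 5870 (HCT116 INPUT), 629 to 2050 (HCT15 TE), 2735 to 3433 (SW620 footprints), 785 to 1847 (SW620 TE), 978 to 1209 (HCT15-COPS7B INPUT), 763 to 1365 (HCT15-COPS7B footprints), 0 to 2 (HCT15-COPS7B TE), 3 to 368 (HCT15-PLVX INPUT), 326 to 2560 (HCT15-PLVX footprints) and 0 to 624 (HCT15-PLVX TE). Depth limits the SW620 footprint values, which rest on libraries of 98043 and 84262 counts.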
